A study of Caenorhabditis elegans with 4 samples.

Results

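Runs of closely spaced NURF-1 peaks made up 21.2% of the nuclear peaks in the whole-series list: 2493 of 11781 peaks, in 669 runs. A run was defined as 3 or more neighbouring peaks in which each gap between the end of a peak and the start of the next was 1000 bp or less. The members were thus chosen by the positions of the whole-series peaks, and counts, gaps and spans of the runs describe that choice without testing it. The study profiled NURF-1 by chromatin immunoprecipitation and sequencing (ChIP-seq) in L3 larvae of the wild-type Caenorhabditis elegans strain N2. The worms were a mixed population of males and hermaphrodites kept at 20 °C. The series has 2 ChIP libraries, made with the affinity-purified rabbit polyclonal antibody SDQ2940, and 2 input libraries, all with the same strain, stage and genotype. Chromatin came from whole ground worms, so peaks are averages over all tissues, and chromatin was crosslinked with EGS for 20 minutes and with EGS plus formaldehyde for a further 10 minutes. The lists show how the runs were built, where they lay, and how many of their peaks were found again in each replicate.

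NURF-1 is the worm counterpart of mammalian BPTF and the defining subunit of NURF, a nucleosome remodelling complex. NURF uses an ISWI-class ATPase to slide nucleosomes along DNA. In BPTF, a PHD finger that binds histone H3 trimethylated at lysine 4, a mark of active promoters, and a bromodomain that binds acetylated histones bring the complex to chromatin. A peak in a ChIP list is a stretch of genome where sequenced fragments pile up above the background the caller estimated, and peaks in close succession may mark neighbouring sites or parts of a broad enriched stretch. Which of these applies was not tested.

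The 3 deposited lists differ in length: 4850 nuclear peaks for replicate 1, 11765 for replicate 2 and 11781 for the whole series. The whole-series list shares most of its peaks with replicate 2. Of its nuclear peaks, 36.0% overlapped replicate 1, 94.5% overlapped replicate 2 and 34.3% overlapped both. A further 1.62% overlapped replicate 1 alone and 3.84% neither list. How the whole-series list was made from the replicates is not stated, and it may draw on the same reads, so overlap is no independent replication. The lists give no read counts, and depth is therefore unknown. No test between replicates was possible with 2 ChIP lists. No test of runs against other peaks was made either, since peaks are not replicates of the experiment. Intervals on shares are 95% Wilson intervals and cover counting error only. They treat peaks as independent, which members of the same run need not be. Input values were not analysed here. All coordinates are on WormBase WS220, and gene names were not assigned since no annotation of that build was used here.

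Most runs were short. The 669 runs comprised 400 of 3 peaks (59.8%), 159 of 4 peaks (23.8%), 56 of 5 and 54 of 6 or more. The 54 longest held 377 peaks. Among them, 29 runs had 6 peaks, 11 had 7, 8 had 8, and 2 each had 9 and 10, with 1 run of 11 and 1 of 13. Another 2656 nuclear peaks formed 1328 pairs by the same gap rule, and 6632 stood alone.

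The runs spanned a median of 2562 bp, with quartiles of 1977 and 3559 bp and extremes of 782 and 11330 bp. The median span was 2144 bp for runs of 3, 3097 bp for runs of 4, 3952 bp for runs of 5 and 5419 bp for runs of 6 or more. Together the spans covered 1.95 Mb, and the peaks inside them covered 1.20 Mb. The spans were 1.94% of the 100.3 Mb counted up to the last peak of each chromosome. A median of 60.7% of a run's span lay inside peaks, and the range ran from 24.7% to 97.2%. Member peaks had a median width of 352 bp, close to the 343 bp of peaks in pairs and the 350 bp of single peaks, and they held 22.0% of all nuclear peak bases.

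**Figure D1:**
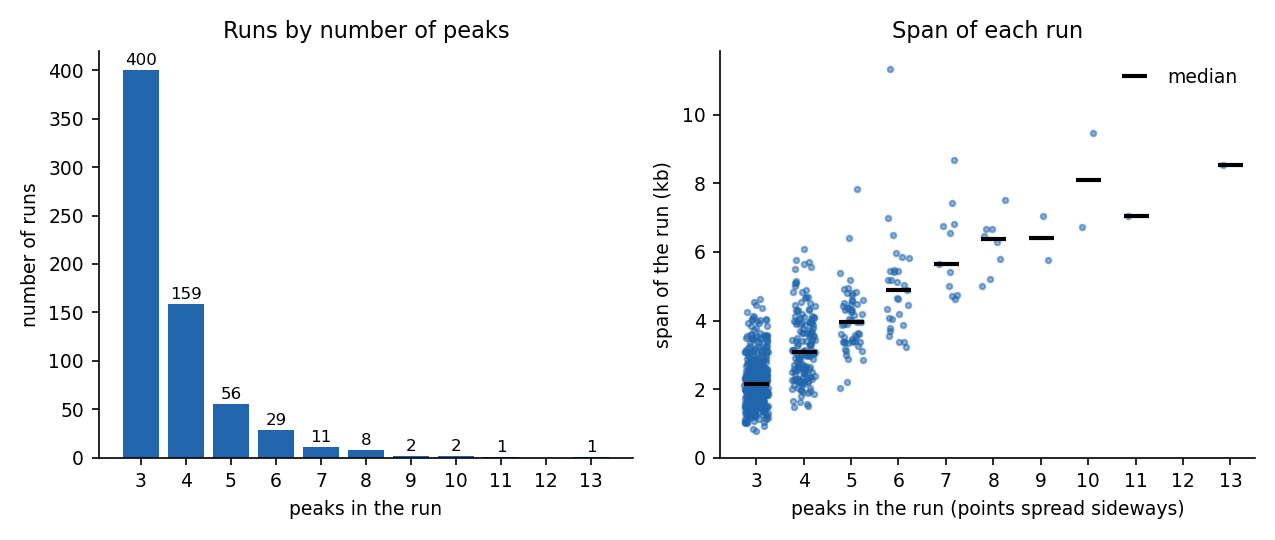
The left panel counts runs by the number of peaks in them, and the right panel plots the span of each run in kb against that number, with each point a run and each black bar the median. Runs of 3 peaks make up 400 of the 669 runs, and the widest run, at 11330 bp, holds 6 peaks.

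Gaps inside runs were short. The 1824 gaps had a median of 364.5 bp and quartiles of 163 and 620.25 bp. No 2 neighbouring nuclear peaks lay closer than 51 bp in any of the 3 lists. Of the gaps inside runs, 569 (31.2%) were 200 bp or less. Gaps in pairs had a median of 428.5 bp, while the median gap between all neighbouring nuclear peaks was 3246 bp. Gaps of all nuclear peaks thinned out with length, most of all at the start. There were 954 of 200 bp or less, although none was under 51 bp, and 675 between 201 and 400 bp. The next 3 steps of 200 bp held 564, 519 and 440, and 376 lay between 1001 and 1200 bp. The limit of 1000 bp thus fell at no break in the series of gaps. Just inside it, 106 neighbouring peaks were 951 to 1000 bp apart, with a median score of 15.63 and 33.0% overlapping replicate 1. Just outside it, 101 were 1001 to 1050 bp apart, with a median score of 18.5 and 33.7% overlapping replicate 1.

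Runs typically held a strong peak and weaker companions. The score is the caller's own value for each peak as deposited. Its scale is not stated. Scores of different lists are given side by side for some runs, but their levels may not be comparable, and no difference in level is read between lists. The best-scored peak of a run had a median score of 70.92 and a median width of 660 bp. The 1824 other members had a median score of 8.18 and a median width of 286.5 bp. Choosing the best of several peaks raises its score by construction, and the same choice in pairs gave 49.88 for the better and 7.51 for the other peak. The best score in a run was a median of 2.69 times the second best, with quartiles of 1.54 and 6.36, and a median of 11.4 times the lowest. In 206 runs (30.8%) the best peak scored at least 5 times the second, and in 161 (24.1%) under 1.5 times. At the extreme, the best peak scored 53.1 times the second.

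The strong peak had no preferred place. In runs of 3, the best-scored peak was the first in 147 runs, the middle one in 115 and the last in 138. In runs of 4, it was in first to last place in 39, 39, 42 and 39 runs. Over all runs it was an inner peak in 39.2% (35.5 to 42.9), where the number of inner places alone gives 42.5%. The scores of neighbouring peaks in a run were uncorrelated across the 1824 neighbours (Spearman's rho = -0.00), as were those in pairs (rho = 0.01). Wider peaks scored higher, with a rho of 0.79 across members and 0.82 across other nuclear peaks. These correlations describe peaks of 1 list, which share their libraries and are not independent.

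Members scored lower than peaks with fewer neighbours. Their median score was 11.65, against 15.14 for peaks in pairs and 21.55 for single peaks. The ratio of the members' median to that of all other nuclear peaks was 0.60. The lower median appeared on each of the 6 nuclear chromosomes, with ratios from 0.45 on X to 0.72 on IV. By run length, the median was 12.92 in runs of 3, 12.41 in runs of 4, 10.985 in runs of 5 and 9.64 in runs of 6 or more. Of the members, 7.98% were among the best-scored 10% of the list (a score of 149.6 or more). They lay in 175 runs (26.2% of runs, each with 3 or more peaks), of which 23 contained 2 or more such peaks. In 93 runs (13.9%) every peak scored below the list median of 17.27. The lowest score reached 50 or more in 11 runs.

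The 5 runs with the most peaks varied in how far the best peak stood above the second, from 1.18 to 4.94 times its score. The longest, on chromosome III from 12218371 to 12226891 (8521 bp), held 13 peaks. Its second-to-last peak scored 137.43 and its first 99.91, and the 11 others scored 3.2 to 17.46. All 13 peaks overlapped replicate 2, where the best score was 131.68, and 3 overlapped replicate 1, where the best was 25.47. Those 3 were both strong peaks and the neighbour of the first. The strong peaks thus stood near the ends of the run, with a string of weak ones between them.

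On chromosome I, 10 peaks lay between 12038777 and 12048228 (9452 bp). The second peak scored 301.23 and the sixth 60.99, and the rest scored 21.44 or less. Of these 10 peaks, 9 overlapped replicate 2 and 3 overlapped replicate 1. The best scores there were 323.38 and 32.6. Another run of 10 on the same chromosome, from 9110689 to 9117410 (6722 bp), had 4 strong or middling peaks at its left (129.68, 28.54, 178.53 and 73.71), then 6 peaks of 18.53 or less. All 10 overlapped replicate 2 and 5 overlapped replicate 1, among them the 4 on the left. On X, 9 peaks spanned 6250045 to 6257089 (7045 bp). The best scored 154.5, and it was the single peak of that run found in replicate 1, while all 9 were found in replicate 2. The weak peaks of these 4 runs were thus mostly found in replicate 2 alone.

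The remaining run among the 5 with the most peaks differed. Its 11 peaks on chromosome I, from 10945967 to 10953015 (7049 bp), scored 4.42 to 37.92. Replicate 1 contained 10 of them, with a best score of 27.38, and replicate 2 contained 6, with a best score of 13.87. No peak stood out, since the best scored 1.18 times the second.

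**Figure D2:**
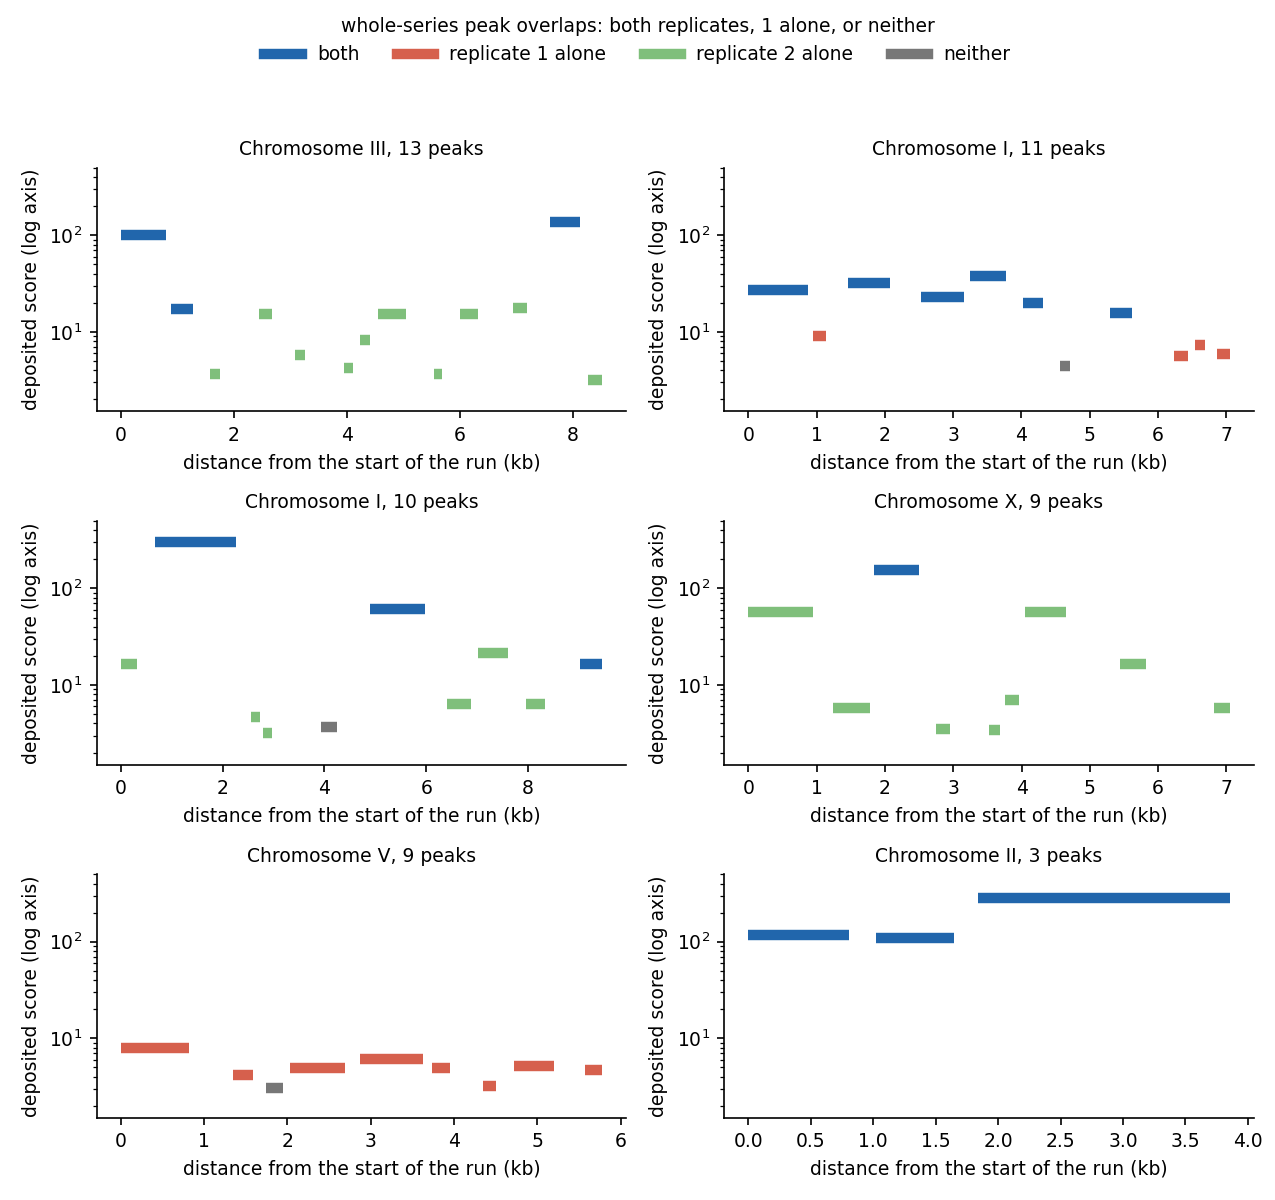
Deposited score of each whole-series peak (log axis) against its distance in kb from the start of its run, for 6 runs; each bar is a peak drawn to its width, and its colour shows which replicate lists it overlaps. The runs of 13 and 10 peaks on III and I hold a few strong peaks found in both lists among weak ones mostly found in replicate 2 alone. Of the 9 peaks on X, the best is found in both lists and the others in replicate 2 alone, among them peaks of 57.66 and 56.45. The 9 peaks on V score 3.02 to 7.91 and include none found in replicate 2, and the 3 peaks on II all score above 100.

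The longest runs on II, IV and V also had no single peak far above the next, with the best at 1.01, 1.09 and 1.31 times the second. On II, 8 peaks from 6831815 to 6839319 (7505 bp) scored 4.13 to 51.87. All 8 were found in replicate 2, with a best score of 59.84, and 0 in replicate 1. On IV, 8 peaks from 5077978 to 5084256 (6279 bp) scored 2.75 to 35.7, with 7 found in replicate 2 and 0 in replicate 1. On V, 9 peaks from 10605879 to 10611654 (5776 bp) scored 3.02 to 7.91. There the lists stood the other way round, with 8 peaks found in replicate 1 and 0 in replicate 2.

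The 5 runs with the highest single scores had 3 or 4 peaks, as most runs did. Across all runs, the median best score was 65.0 in runs of 3 and 85.3 in runs of 4. It was 70.4 in runs of 5 and 91.5 in runs of 6 or more. A run of 4 on IV, from 4747184 to 4750486, ended in a peak of 345.16. That peak scored 359.61 in replicate 1 and 364.98 in replicate 2, and a neighbour 130 bp to its left scored 174.55. A run of 3 on III, from 1949433 to 1952258, had its best peak of 339.2 in the middle, between peaks of 10.13 and 25.82. On IV, from 13880448 to 13882443, the last of 3 peaks scored 334.25, or 35.3 times the second. The runs at I, 3784547 to 3788566, and III, 1416602 to 1420897, both reached 331.36. In each of these 5 runs the best peak was found in both replicates, as were 60.4% of the best-scored peaks of all runs. Of the 12 companions in these runs, 3 were found in replicate 1 and 11 in replicate 2. Among all members other than the best of a run, the shares were 20.4% and 88.6%.

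A few runs were strong throughout. On II, the 3 peaks from 11746592 to 11750444 scored 116.39, 109.99 and 282.97. In replicate 1 the same peaks scored 7.44, 29.42 and 55.65, and in replicate 2 they scored 123.4, 95.54 and 321.72. On I, from 533144 to 537247, the 3 scores were 108.84, 314.19 and 262.87, and a further run on I, from 1066862 to 1070356, had scores of 105.73, 231.51 and 130.65. Every peak of these 3 runs was found in both replicates. The widest run lay on X, from 16928185 to 16939514 (11330 bp). It held 6 peaks, among them one of 4752 bp with a score of 253.1, the widest of all members, and 4 of its 6 peaks were found in each replicate.

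Members were found in the replicate lists somewhat less often than nuclear peaks in general. Of the 2493 members, 789 overlapped a replicate 1 peak by at least 1 bp (31.6%, 29.9 to 33.5), against the 36.0% of all nuclear peaks. In replicate 2, 2271 were found (91.1%, 89.9 to 92.2), against 94.5%. Both lists contained 683 members (27.4%, 25.7 to 29.2), against 34.3%. Peaks in pairs lay between, with 35.7% in replicate 1 and 94.5% in replicate 2. Single peaks were found in 37.7% and 95.9%. Members were below other nuclear peaks in both replicates on each of the 6 chromosomes.

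Which members of a run were found varied with their score rank. The best-scored peak was found in replicate 1 in 62.3% of runs (58.6 to 65.9), the second in 30.8% (27.4 to 34.4), the one ranked 3 in 14.3% (11.9 to 17.2) and those ranked 4 or lower in 14.4% (11.6 to 17.8). In replicate 2, the shares were 97.9%, 94.9%, 89.1% and 79.2%. In pairs, the better peak was found in replicate 1 in 54.4% and the other in 17.0%. Among the 460 runs with at least 1 peak in replicate 1, the best-scored peak was among those found in 417 (90.7%). Where exactly 1 peak was found there, which happened in 262 runs, it was the best-scored one in 227 (86.6%). In 564 runs at least 2 members were found in replicate 2, each matched to its own. Among the members found, the same one scored best in the whole-series list and in replicate 2 in 540 of these runs (95.7%). For replicate 1 this held in 152 of 189 runs (80.4%). Members not found in the replicate were left out of this comparison. Agreement by chance depends on how many members are compared, so the shares for the 2 replicates are not like for like.

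**Figure D3:**
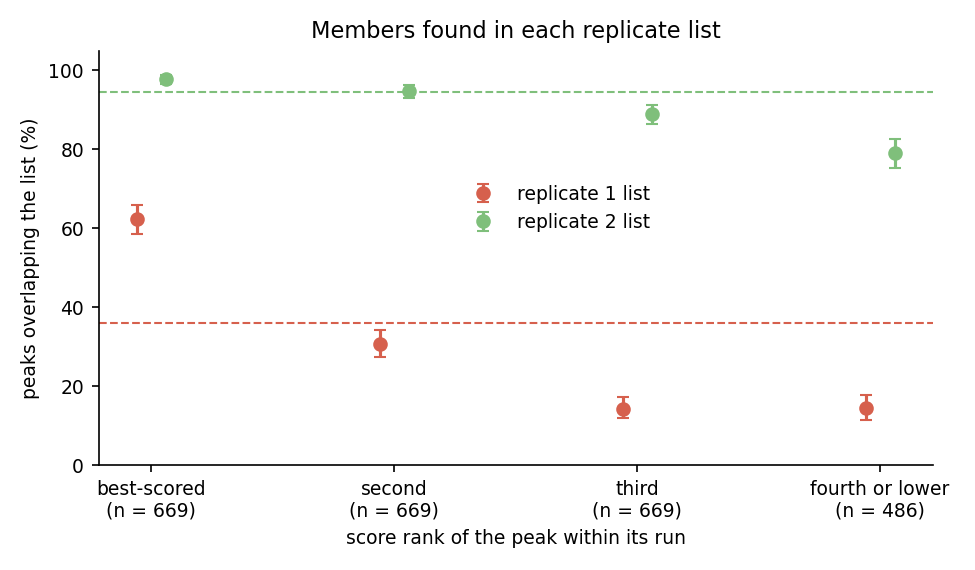
Share of members (%) overlapping the replicate 1 and replicate 2 lists, by the score rank of the peak within its run; bars are 95% Wilson intervals and dashed lines give the share among all nuclear peaks. The share in replicate 1 falls from 62.3% for best-scored peaks to 14.4% for those ranked 4 or lower, and in replicate 2 from 97.9% to 79.2%.

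Whole runs were found far more often in replicate 2, the longer list. Of all nuclear whole-series peaks, 94.5% overlapped replicate 2 and 36.0% overlapped replicate 1. How far these shares account for the counts of whole runs was not tested. Every peak of the run overlapped replicate 2 in 539 of 669 runs (80.6%, 77.4 to 83.4), some but not all in 118 (17.6%) and none in 12 (1.79%). In replicate 1, every peak was found in 42 runs (6.28%, 4.68 to 8.38), some in 418 (62.5%) and none in 209 (31.2%). In runs of 3, replicate 1 held 0, 1, 2 or all 3 peaks in 142, 158, 73 and 27 runs, and replicate 2 in 5, 9, 44 and 342. In 171 runs every peak was in replicate 2 and none in replicate 1. Every peak was in both lists in 24 runs, and there was no run in which every peak was missing from both. More peaks were in replicate 2 than in replicate 1 in 600 runs, equally many in 40, and more in replicate 1 in 29.

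Joining the peaks of each replicate list by the same rule gave 668 runs of 2464 peaks in replicate 2 and 119 runs of 469 peaks in replicate 1. These were 20.9% and 9.67% of the peaks of those lists. Of the 669 whole-series runs, 552 (82.5%, 79.4 to 85.2) overlapped a run of replicate 2, 63 (9.42%, 7.43 to 11.9) a run of replicate 1, 39 a run of both and 93 a run of neither. A whole-series run overlapped a median of 1 peak of replicate 1 and 3 of replicate 2. A single replicate peak reached across the gap between neighbouring members at 88 of 1824 gaps in replicate 2 (4.82%) and at 18 in replicate 1 (0.99%). The reverse, a member that overlapped 2 or more peaks of a replicate, was seen for 43 members in replicate 2 and 75 in replicate 1.

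**Figure D4:**
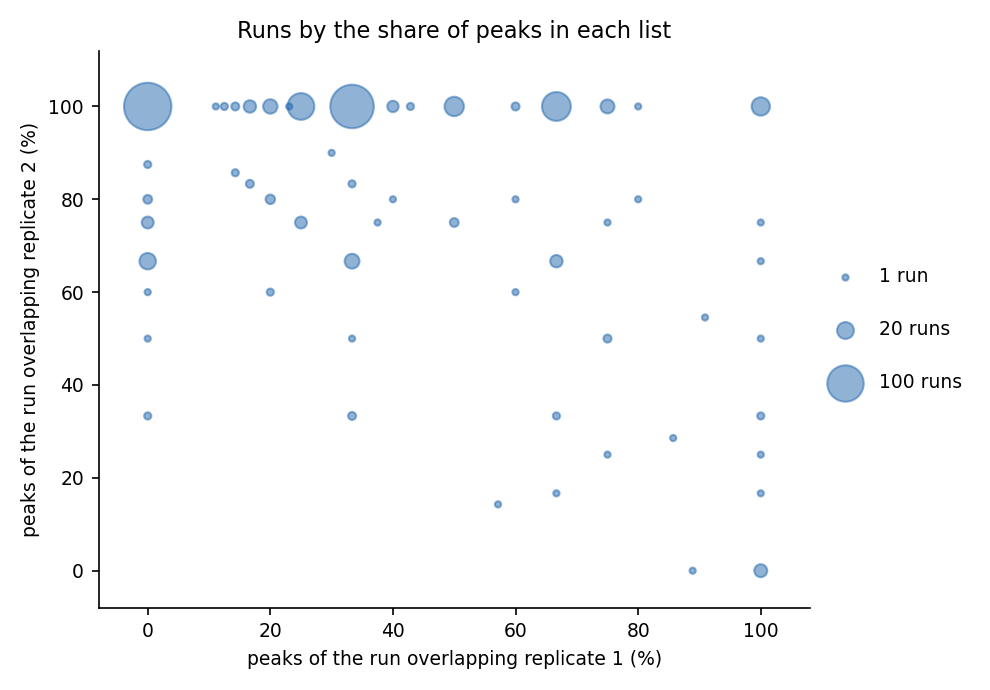
Each circle places runs by the share of their peaks (%) that overlaps replicate 1 (horizontal) and replicate 2 (vertical), with its area growing with the number of runs. Most runs lie along the top, with every peak in replicate 2, and 12 runs lie at the bottom with no peak in replicate 2 and all or, in 1 run, 8 of 9 peaks in replicate 1.

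A small set of runs was found in replicate 1 alone; it was singled out after its values were seen. Members overlapped replicate 1 alone in 106 cases (4.25%), against 1.62% of all nuclear peaks. These 106 made up 55.5% of the 191 whole-series peaks found in replicate 1 alone; 35 others lay in pairs and 50 stood alone. Of the 106, 97 lay in the 29 runs with more peaks in replicate 1 than in replicate 2. Such runs were 10 of the 54 runs of 6 or more peaks (18.5%) and 19 of the 615 shorter ones (3.09%). The members in runs of 6 or more came from only 54 runs, and members of the same run are not independent. Of the members in runs of 6 or more, 14.3% were in replicate 1 alone and 80.1% overlapped replicate 2 (75.8 to 83.8). In runs of 3, these shares were 2.42% and 93.6% (92.1 to 94.8), in runs of 4 they were 3.62% and 92.1%, and in runs of 5 they were 0% and 92.9%, so there was no steady rise with run length.

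In 12 runs no peak was found in replicate 2, and 55 of their 56 peaks were found in replicate 1. They lay on I (4 runs), X (3), II (2), III (2) and V (1). Their peaks were weak in the whole-series list, with a median score of 6.05 and a maximum of 17.61. Each member found in replicate 1 was given the best score among the replicate 1 peaks it overlapped. These scores had a median of 9.95, at the median percentile of 48.7 of that list, and none passed percentile 76.7. A replicate 1 peak that overlapped several members counted for each of them. The nearest replicate 2 peak was 2925 to 35252 bp away. On chromosome I, runs of 7 peaks each at 10204349 to 10209344 and 10212461 to 10219227 were neighbours. In replicate 1 these formed a single run of 17 peaks from 10204078 to 10219122 (15045 bp), the longest of that list, with a best score of 17.44 and no replicate 2 peak within it. On X, 6 peaks from 9184962 to 9188667 scored 6.01 to 13.24 in the whole-series list and up to 24.91 in replicate 1. On III, 4 peaks from 2077646 to 2082485 scored 2.75 to 8.15, and up to 18.51 in replicate 1.

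At like score, members were found in replicate 1 more often than single peaks in the 3 lower of 5 score groups. Peaks in pairs lay between in those groups. In the 2 upper groups members were found slightly less often than single peaks. Members of the same run are not independent, so the intervals are no test of these differences. Nuclear peaks were split by whole-series score into 5 equal groups, and members fell more often in the lower ones, with 25.6% of members and 17.0% of single peaks in the lowest. In the lowest-scored group, 7.98% of members (6.12 to 10.3) and 3.63% of single peaks (2.69 to 4.89) were found in replicate 1. In the next group these shares were 12.5% (10.1 to 15.5) and 3.51% (2.62 to 4.68), and in the middle group 23.6% (20.1 to 27.5) and 16.1% (14.2 to 18.1). In the upper groups they were 53.3% (48.5 to 58.1) and 57.7% (55.1 to 60.2), then 91.4% (88.0 to 93.9) and 93.0% (91.5 to 94.2). For peaks in pairs the shares, from the lowest group up, were 4.07%, 6.55%, 20.8%, 58.1% and 93.2%. Among peaks that also overlapped replicate 2, which leaves out those found in replicate 1 alone, the 3 lower groups had 0.62%, 5.12% and 21.7% of members against 0.67%, 2.62% and 15.9% of single peaks. Peaks in pairs had 1.05%, 3.89% and 20.6% there. In replicate 2, every peak of the 2 upper groups was found, whether a member, in a pair or single. In the 3 lower groups, 75.9%, 90.4% and 97.6% of members were found there, against 78.9%, 97.4% and 99.8% of single peaks.

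Chromosome III carried the most runs. It held 156 runs, or 11.3 per Mb, followed by I with 136 (9.02 per Mb), II with 100 (6.54), IV with 111 (6.35), X with 78 (4.40) and V with 88 (4.21). The autosomal mean was 7.49 ± 2.74 runs per Mb (SD, n = 5 autosomes), and X had 0.59 times that. For all nuclear peaks per Mb, X had 0.68 times the autosomal mean. Chromosomes with many peaks per Mb also had many runs, and the differences between chromosomes were wider for runs: III had 2.69 times the run density of V and 1.83 times its density of all peaks. The share of peaks that were members was 26.4% on III (24.6 to 28.3), 21.9% on I, 21.3% on II, 19.7% on IV, 18.5% on X and 17.6% on V (15.9 to 19.4). A run needs 3 or more close peaks, so denser peaks can raise both run density and the share of members by the joining rule alone. Whether the chromosomes differ beyond that was not tested. Runs on X were the weakest, with a median best score of 33.2, while the autosomes ranged from 60.5 on V to 103.5 on IV.

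**Figure D5:**
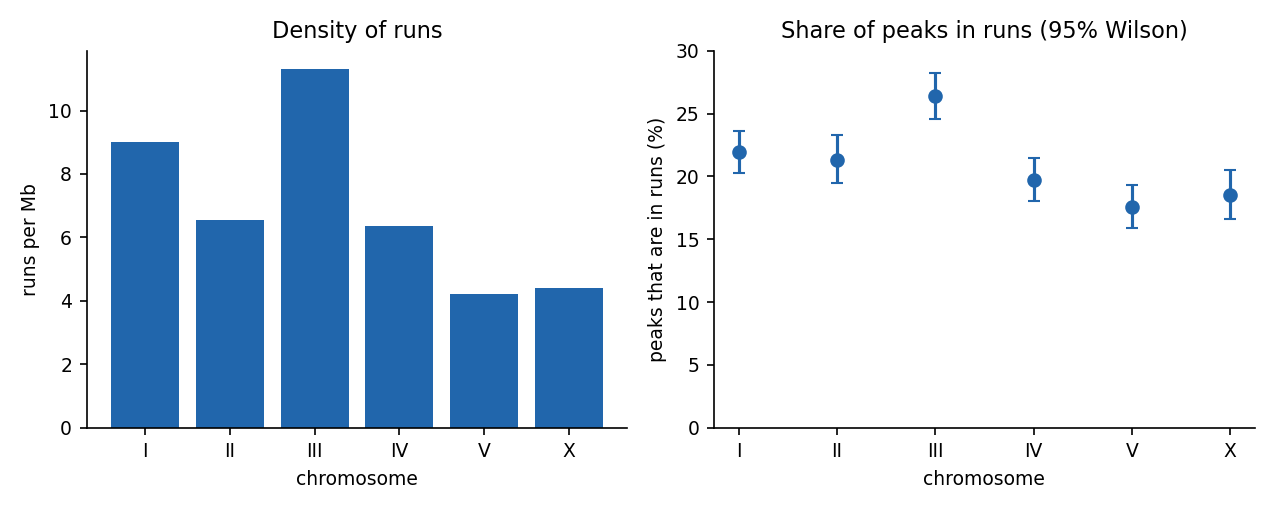
Runs per Mb (left, bars) and the share of a chromosome's nuclear whole-series peaks that lie in runs (right, %, points with 95% Wilson intervals) for the 6 nuclear chromosomes. Chromosome III is highest in both, at 11.3 runs per Mb and 26.4% of peaks, and V is lowest, at 4.21 and 17.6%.

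Along the chromosomes, 229 runs (34.2%, 30.7 to 37.9) had their midpoint in the middle 33.3% of the chromosome, against 35.6% of all nuclear peaks. By chromosome this share was lowest on X (29.5%), III (30.1%) and IV (31.5%), 33.1% on I and 37.0% on II, and highest on V (47.7%). All nuclear peaks gave the same order of chromosomes: 31.5% on X, 33.6% on III, 33.7% on IV, 36.5% on I, 37.5% on II and 40.4% on V. Neighbouring runs lay a median of 85.4 kb apart, 57 of 663 neighbours were within 5 kb, and the longest stretch without a run was 1503 kb between neighbours. Of 1005 windows of 100 kb, 556 held no run and 54 held 3 or more. The most in a window was 5, reached at II, 10500001 to 10600000, at III, 5800001 to 5900000 and 12900001 to 13000000, and at V, 10000001 to 10100000. A single run touched a chromosome end: 3 peaks on II from base 1 to 1710, with scores from 8.45 to 58.35, all found in replicate 2 and 1 in replicate 1.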

How the data were processed

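NURF-1 was profiled in 2 ChIP libraries beside 2 input libraries. The submitters' processing notes name BWA and the ce10 genome. The authors deposited 3 MACS peak lists on WormBase WS220, per the file headers, each giving the bounds of every peak and its score. The scale of the deposited score, the caller's version and thresholds, the use of input and the way replicates were combined are not given in the sources used. Whether replicates are separate cultures is not labelled, so their spread may be technical.

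Peaks on the 6 nuclear chromosomes were sorted, neighbours at most 1000 bp apart were joined, and runs of 3 or more were kept. Overlap with a replicate list meant at least 1 bp. Chromosome length was the last base of the last peak. On simulated data with 625 planted runs, 625 were recovered. Named runs are the 5 with most peaks, the 5 with the highest best score, the 3 widest, the 3 with the highest lowest score, the longest of each chromosome, and the 3 longest missing from both replicate lists, of which there were 0. The members and rules were chosen with earlier results of these data known. Analyses used Python 3.11.15 with SciPy 1.17.1, pandas 2.3.3, NumPy 2.4.6 and matplotlib 3.10.9. Alternatives covered the gap, the overlap, the lowest scores and each replicate. No genome of the build was used, so no sequence or gene was assigned.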

Additional observations from a re-analysis of the deposited data

Results flagged for a closer look

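Peaks on mitochondrial DNA lay outside the nuclear comparisons and are noted because more than 3 of them fell in runs. Under the same joining rule, all 15 mitochondrial peaks of the whole-series list formed 1 run from 456 to 13764 (13309 bp), with a best score of 83.39 and a median of 10.81. The replicate 1 and replicate 2 lists held 6 mitochondrial peaks each and no run, with at most 2 peaks joined in either list. The best mitochondrial scores there were 81.45 and 40.49. Input values were not analysed here.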

How the results depend on the processing

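Of 50 alternatives over 13 results, 44 were set with the design and 6 were chosen after seeing the data; 20 stayed near the reported value and 30 moved. The counts of members and runs, 2493 and 669, depended on the gap: 1227 and 357 at 500 bp, 4247 and 1037 at 2000 bp. They fell to 1220 and 352 without the lowest-scored 20% of peaks, and to 1497 and 428 when peaks at most 200 bp apart were first joined into 1. Leaving out each replicate in turn, by applying the rule to the other list, gave 469 to 2464 members and 119 to 668 runs. With only peaks overlapping both replicates, 136 members in 41 runs remained; with only those overlapping replicate 2, 2132 in 589. The share of members in replicate 1 was 34.4% at 500 bp, 39.2% without the lowest-scored 20% and 15.4% when at least 50% of the member had to overlap. In replicate 2 it was 88.7% at 500 bp, 93.1% at 2000 bp and 96.6% without the lowest-scored peaks. In both it was 30.2% at 2000 bp, 36.2% without the lowest-scored peaks, 10.8% with 50% overlap, and 31.6 to 91.1% with either replicate left out. The shares of all nuclear peaks without the lowest-scored 20%, or with 50% overlap, were not computed. These values for members therefore cannot be set against the shares of all nuclear peaks given above. Runs with every peak in replicate 1 were 3.44% with 50% overlap and 11.4% without the lowest-scored peaks; in replicate 2, 95.7% without the latter. Runs that were also runs of replicate 1 were 14.0% at 2000 bp, and of replicate 2, 71.1% at 500 bp and 87.3% at 2000 bp. The ratio of run density on X to the autosomal mean was 0.35 without the lowest-scored peaks. No paired analysis was possible because no peak list of the input libraries was analysed here and no result comes from a test. With no read counts, depth could not be weighed.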

Other observations

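The replicate 1 list had runs of its own outside the whole-series runs, 56 of its 119. Of these, 23 lay on 1 whole-series peak, which had a median width of 1551 bp, 23 lay on 2 or more whole-series peaks, and 10 touched none. The 10 were weak, with no score above 9.27. The longest of them were runs of 7 peaks at IV, 6357819 to 6360346 (best score 5.89) and V, 9428633 to 9432015 (7.22). A run of 10 replicate 1 peaks at X, 14384739 to 14389667 touched 1 whole-series peak and had a best score of 5.76. In all, 28 of the 119 replicate 1 runs (23.5%) contained no replicate 2 peak, and 219 of the 668 replicate 2 runs (32.8%) contained no replicate 1 peak. The longest replicate 2 run had 15 peaks, at IV, 4397084 to 4407839 (10756 bp), with a best score of 129.03. It overlapped 13 whole-series peaks in 3 runs. These runs were chosen after their values were seen.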
